A study of Mus musculus with 6 samples.

Results

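The genes described here are 9 genes of blood coagulation and fibrinolysis, Vwf, Thbd, Procr, Plat, Plau, Plaur, F3, Tfpi and F8, taken by symbol from the 32285 gene rows of a single-cell RNA-seq series on mouse back skin. All 9 were measured in each of the 6 libraries. Clotting is started by tissue factor (F3), a surface protein that is normally kept away from the blood, and ends with thrombin cutting fibrinogen to fibrin. The vessel wall holds the process back with tissue factor pathway inhibitor (Tfpi), with thrombomodulin (Thbd), which turns thrombin into an activator of protein C, and with the endothelial protein C receptor (Procr), which presents protein C for that step. Fibrin is later dissolved by plasmin, which is made by tissue-type (Plat) and urokinase-type (Plau) plasminogen activator, the latter held at cell surfaces by its receptor (Plaur). Endothelium also stores von Willebrand factor (Vwf), which tethers platelets and carries coagulation factor VIII (F8).

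The series follows cells labelled through Cdh5, the gene of VE-cadherin, an adhesion protein of endothelial cells, and asks how the populations differ between rest (telogen) and growth (anagen) of the hair follicle and after loss of Alk1. Alk1, encoded by Acvrl1, is an endothelial receptor of the BMP and TGF-beta family. WT mice carried tdTomato, Cdh5-CreERT2 and Krt14-H2BGFP on a background labelled C57BL/6;CD1 and were sampled in telogen at PD20 or in anagen at PD32 (postnatal days). Alk1 KO mice carried Alk1 flox/flox, tdTomato and Cdh5-CreERT2 on a background labelled C57BL/6 and were sampled in telogen at PD25. All mice received 200 μg/g tamoxifen at PD17, and live tdTomato+ cells were sorted (GFP- in the WT mice) and sequenced with a droplet method that reads the 3′ end of RNA. Each group had 2 libraries, which by the study's methods came from 2 mice. The genotype label of the Alk1 KO libraries reads wild type, against their titles and descriptions, which were followed here. The study describes the Alk1 KO data as an earlier dataset of its own, for which the WT telogen libraries served as control. The Alk1 KO libraries thus differ from the WT libraries in age, strain label, reporter alleles and dataset as well as in Alk1. These cannot be told apart in any comparison of the 2 sets. The sorted cells also held cells that are not endothelial by their markers, among them perineurial, mural, connective tissue and blood cells.

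Libraries held 2283 to 6643 barcodes and 10615358 to 43317677 UMIs (unique molecular identifiers, each counting 1 captured RNA molecule). Barcodes were kept when they had 200 to 5000 genes and mitochondrial UMIs stayed under 10%, and 1713 to 5106 cells per library remained, with medians of 4371 to 6935 UMIs, and any pair of libraries shared 1 to 8 kept barcodes. Cells were clustered without the 9 genes or the other haemostasis genes below, and each cluster was named from markers. Endothelial types were artery-like (Artery), vein-like (Vein), collecting or capillary lymphatic-like (Lymph-Col, Lymph-Cap) and dividing endothelial-like (Proliferative). A further 2 were capillary-like, named for the markers Kdr or Rgcc (Cap-Kdr, Cap-Rgcc). The 8 other types were Pericyte, Fibroblast, Perineurial, Schwann, Macrophage, Mono-DC, Mast and T-NK, each likewise only "-like". UMIs were summed per library and population, and levels are given in CPM, the usual scaling of the counts of each sum to a common total. Levels of different genes are not set against each other, since capture at the 3′ end differs from gene to gene. The floxed gene itself, Acvrl1, stood at 309 and 285 CPM in Artery of the WT telogen libraries and at 308 and 253 in the Alk1 KO libraries, and in Cap-Kdr at 211 and 157 against 124 and 106. It was called lower in 5 of 11 populations tested, among them Cap-Kdr and Cap-Rgcc, and not in Artery, where the groups overlapped. The labels do not name the deleted exons, so 3′ reads may lie outside the deleted part and then check nothing.

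On GRCm38, by the GENCODE annotation, 3 of the 9 genes lie on chromosome 2 (Tfpi at 84432855-84476775, Thbd at 148404466-148408188 and Procr at 155751117-155755471). Vwf lies at 6:125546774-125686679, Plaur at 7:24462484-24475968, Plat at 8:22757727-22782844, Plau at 14:20836660-20843385, F3 at 3:121723537-121735048 and F8 at X:75172715-75382615. RefSeq promoter sequence was matched for 5 of the 9 (Procr, Plaur, F3, Tfpi and F8). The 250 bases before the RefSeq start are shown for 3 of them on GRCm38, because Procr and Plaur are the members that were called in most populations of the Alk1 KO libraries, in opposite directions in endothelium, and F3 is the member that endothelium all but lacked. They are given 5′ to 3′ on the strand of the gene, which is + for all 3, at chr2:155750967-155751216 for Procr, chr7:24462233-24462482 for Plaur and chr3:121723287-121723536 for F3. Capitals mark matches on either strand to the AP-1 motif TGANTCA, which Fos and Jun proteins bind, or to the GC box GGGCGG.
Procr: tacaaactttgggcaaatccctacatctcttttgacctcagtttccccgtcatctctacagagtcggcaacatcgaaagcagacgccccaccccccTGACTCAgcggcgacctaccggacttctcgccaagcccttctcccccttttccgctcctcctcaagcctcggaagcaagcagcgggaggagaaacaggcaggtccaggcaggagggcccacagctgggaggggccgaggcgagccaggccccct
Plaur: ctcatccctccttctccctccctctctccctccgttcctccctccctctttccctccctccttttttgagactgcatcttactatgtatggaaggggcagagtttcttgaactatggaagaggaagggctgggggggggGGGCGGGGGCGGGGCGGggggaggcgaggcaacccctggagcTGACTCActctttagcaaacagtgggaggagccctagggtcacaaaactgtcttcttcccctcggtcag
F3: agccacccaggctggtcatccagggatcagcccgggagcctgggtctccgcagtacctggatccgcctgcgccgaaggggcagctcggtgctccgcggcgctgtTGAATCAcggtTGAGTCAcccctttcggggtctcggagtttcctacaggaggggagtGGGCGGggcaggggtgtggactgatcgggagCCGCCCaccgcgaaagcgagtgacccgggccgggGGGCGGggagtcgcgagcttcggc
Each of these 3 windows held an AP-1 match and the windows of Tfpi and F8 held none, where a match is found in 6.75% of 32851 RefSeq promoter windows of the same length. Plaur and F3 also held 3 GC boxes each, those of Plaur overlapping, and Procr had none, where 32.7% of all windows have at least 1. Procr's RefSeq start lies inside the GENCODE gene, so part of its window is transcribed in that annotation. The F8 window lies wholly inside its GENCODE gene. Tfpi had windows at different RefSeq starts, of which the upstream window overlaps its GENCODE gene and the downstream window lies wholly inside it. A match to these letters is a description of the sequence and not a bound site.

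Tissue factor was seen outside the endothelium. F3 stood at 171 and 116 CPM in Perineurial (cells like the sheath around nerves) of the WT telogen libraries, at 152 and 124 in WT anagen and at 117 and 75.7 in Alk1 KO. In Fibroblast the same libraries gave 121 and 146, then 197 and 96.5, then 123 and 114. These were its highest populations in the WT libraries, at 141 ± 25.4 and 139.9 ± 42.9 CPM (mean ± SD, n = 4 WT libraries), and they overlapped. Schwann, the cells like myelinating glia, had 78 and 31 UMIs of F3 in WT telogen but only 3 and 0 in WT anagen, from few cells. F3 stood at no more than 10.5 CPM in any library of the 6 non-dividing endothelial populations, and endothelial cells held 1.28% to 18.3% of a library's F3 UMIs. In such shares, here and below, endothelial cells include the dividing population and the endothelial clusters left unnamed. Among the latter is a cluster of 69 cells led by keratin genes such as Krt14, so the shares are not of endothelial cells alone.

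Tfpi, the inhibitor that blocks the tissue factor complex, was found in endothelium and in the cells around it. In the WT libraries it was highest in Lymph-Cap (79.8 ± 18.1 CPM), Vein (65.7 ± 13.8) and Cap-Kdr (61.6 ± 11.3), which overlapped one another. Artery had 16.0 and 19.0 in WT telogen, 29.2 and 28.8 in WT anagen and 15.6 and 13.5 in Alk1 KO, so that every Artery library lay below every Lymph-Cap library. Fibroblast, Perineurial and Pericyte of the WT libraries also held it, at 45.8 ± 4.8, 46.6 ± 6.4 and 47.2 ± 6.19 CPM. The part of the endothelial markers seen in Pericyte, given below for Procr, was not tested.

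Thrombomodulin was highest in Cap-Kdr, and the protein C receptor in Vein, Pericyte and Lymph-Cap. In Cap-Kdr, Thbd stood at 370.3 and 351 CPM in WT telogen, 281 and 313 in WT anagen and 107 and 141 in Alk1 KO. All 4 WT libraries lay above every WT value of the next population, Cap-Rgcc (185 ± 43.6 against 329 ± 39.8 in Cap-Kdr), and both Alk1 KO libraries lay below all 4 of Cap-Kdr. Thbd was lowest among the endothelial populations in Lymph-Col, at 47.7 and 56.2 in WT telogen and 63.0 and 78.5 in WT anagen.

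Procr, the receptor that presents protein C, was at 712 and 589 CPM in Vein of WT telogen, 656 and 531 in WT anagen and 321 and 447 in Alk1 KO. Lymph-Cap had 485 and 495 in WT telogen, 506 and 690.3 in WT anagen and 183 and 104 in Alk1 KO. In both populations the 2 Alk1 KO libraries lay below all 4 WT libraries. Its WT means were 622 ± 78.9 in Vein, 556 ± 152 in Pericyte (the contractile cells around small vessels) and 544 ± 98.0 in Lymph-Cap, 3 populations whose values overlapped, followed without overlap by Artery at 277 ± 60.7. Pericyte also held endothelial markers, which summed to 3638 and 2965 CPM in WT telogen and 3566 and 1577 in WT anagen. In Vein of WT telogen they summed to 6636 and 7209. Their part in the Procr level of Pericyte was not tested. Cap-Kdr, the population with the most Thbd, had the least Procr among endothelial populations, at 30.8 ± 11.5 CPM.

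The plasminogen activators had different leading populations. Plat, the activator that endothelium releases into blood, stood in Lymph-Col at 332 and 339 CPM in WT telogen, 514 and 367 in WT anagen and 269.9 and 229 in Alk1 KO. Artery gave 238 and 220.0 in WT telogen, 128 and 98.7 in WT anagen and 33.9 and 70.9 in Alk1 KO, and these groups did not overlap. The WT means were 388 ± 85.3 in Lymph-Col, 307 ± 118 in Lymph-Cap, 189 ± 9.66 in Fibroblast and 171 ± 68.4 in Artery, with overlap between each and the next. Vein, Cap-Rgcc and Cap-Kdr were far lower, at 26.0 ± 8.09, 13.8 ± 4.11 and 11.4 ± 6.51.

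Plau, the activator that acts around migrating cells, had its highest levels in Mast and Macrophage. Endothelial cells held 10.3% and 6.90% of a library's Plau UMIs in WT telogen, 64.0% and 83.3% in WT anagen, and 53.0% and 58.2% in Alk1 KO. These shares depend on how many cells of each population were captured. Macrophage had 398 and 954 cells in WT telogen, 105 and 21 in WT anagen and 25 and 37 in Alk1 KO. Between stages Plau was called in 0 of 12 populations tested. Macrophage held 125 and 98.6 CPM in WT telogen, 134 and 30.1 in WT anagen and 137 and 214 in Alk1 KO. The Mast values rested on few UMIs, 29 and 39 in WT telogen and 5 and 6 in WT anagen. Among endothelial populations Lymph-Cap was highest in the WT libraries (45.7 ± 9.57).

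Plaur, the receptor of urokinase, was highest in myeloid cells and Cap-Rgcc, and most other endothelial populations held it too. Mono-DC, the cells like monocytes and dendritic cells, had 519.6 and 441 CPM in WT telogen, 803 and 566 in WT anagen and 519 and 974 in Alk1 KO. Cap-Rgcc gave 649.7 and 514 in WT telogen, 449 and 397 in WT anagen and 1302 and 972 in Alk1 KO. The WT values of these populations overlapped, and those of Cap-Rgcc lay above all of Macrophage (305 ± 50.4). Lymph-Cap (273 ± 24.6) overlapped Macrophage, and Lymph-Col, Vein and Artery held 247 ± 16.3, 218 ± 27.3 and 189 ± 31.5. Cap-Kdr was the endothelial population with the least Plaur (33.1 ± 18.2).

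Vwf was a gene of veins first. In Vein it stood at 574 and 950.3 CPM in WT telogen, 762 and 805 in WT anagen and 669.8 and 602 in Alk1 KO, and the telogen libraries spanned the values of the other groups. Both Alk1 KO libraries lay below both anagen libraries. The WT mean of 773 ± 155 in Vein was followed, with no overlap, by 196 ± 42.7 in Cap-Rgcc and 188 ± 39.2 in Artery, which overlapped each other. Lymph-Col held the least of the endothelial populations, at 4.54 ± 4.75. Endothelial cells held 81.2% to 99.4% of a library's Vwf UMIs. The 8 platelet markers, genes of another cell that makes Vwf, summed in Vein to 26.0 to 41.0 CPM in the WT libraries and to 2.19 to 3.73 in Alk1 KO, and their part in the Vwf levels was not tested.

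F8, the cofactor that Vwf carries, gave only 41 to 115 UMIs per library. It was highest in Lymph-Cap, with 10 and 22 UMIs in WT telogen, 30 and 13 in WT anagen and 27 and 13 in Alk1 KO, or 11.8 and 30.8, then 23.8 and 14.9, then 11.7 and 4.70 CPM. Only Lymph-Cap, Vein and Lymph-Col had enough UMIs to enter the test between stages, and only Lymph-Cap that of the Alk1 KO.

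**Figure D1:**
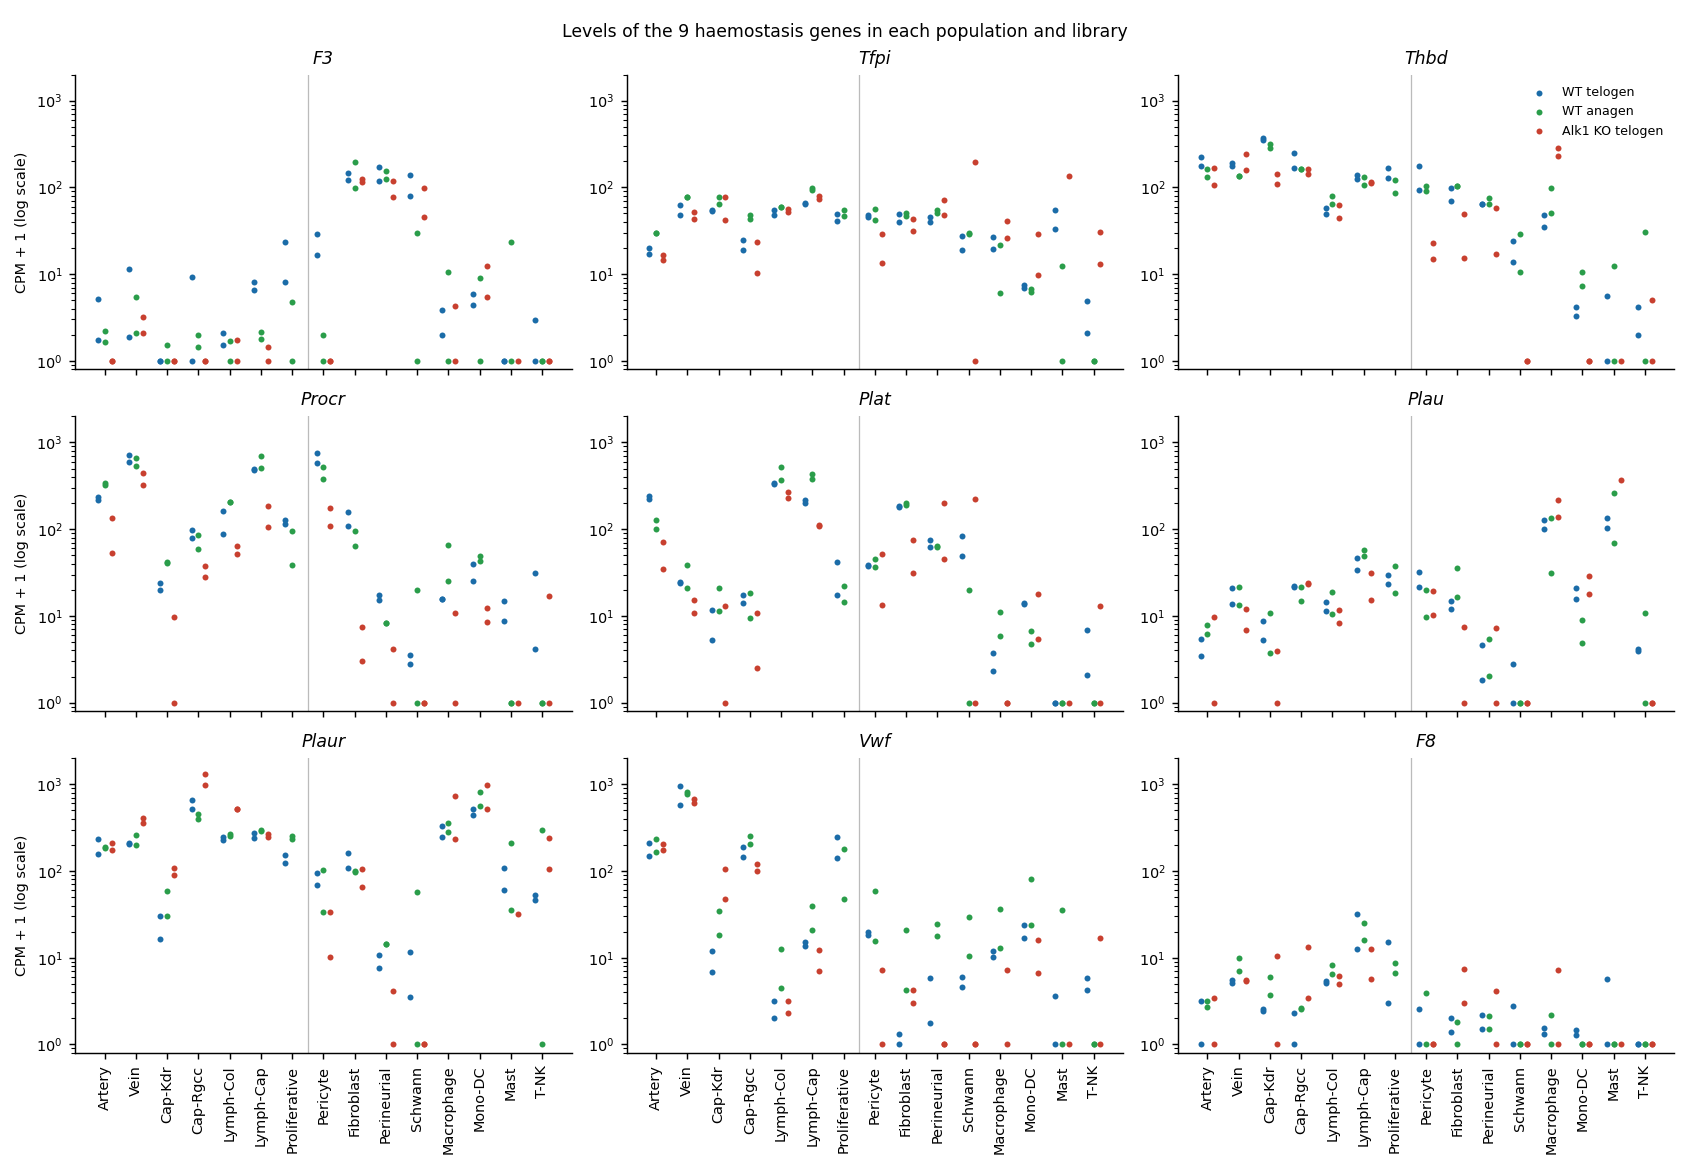
Level of each of the 9 genes (CPM + 1, logarithmic axis) in 15 populations, with 1 point per library of at least 5 cells, coloured by group. The line separates endothelial populations, on the left, from the others, and F3 stands to its right, in Fibroblast and Perineurial, while Vwf peaks in Vein.

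Shares of cells with at least 1 UMI were taken after drawing 1500 UMIs from each WT cell, leaving aside cells with fewer. Vwf was seen in 57.4% (95% interval 54.5% to 60.3%) of 1162 Vein cells, against 0.327% of 306 T-NK cells, lymphoid cells that should lack it. Procr was seen in 41.9% (95% interval 39.0% to 44.8%) of Vein cells and 0.327% of T-NK cells. The corresponding shares were 33.0% for Thbd in Cap-Kdr, 43.8% for Plaur in Mono-DC and 20.4% for Plat in Lymph-Col. Tfpi was seen in 10.4% of Vein and 10.1% of Lymph-Cap cells, with overlapping intervals. F3 was seen in 14.2% of Fibroblast and 14.2% of Perineurial cells, and in 0 of 665 Lymph-Cap cells. Without thinning the shares of Vein cells were 92.3% for Vwf and 76.7% for Procr, at median depths of 8791 and 7931 UMIs in WT telogen and anagen. T-NK cells had median depths of 6385 and 5023, and their shares without thinning are not given here. The intervals are exact binomial and cover counting error over pooled cells only.

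Within the endothelium of the WT libraries each member had its own pattern. Each of the 6 non-dividing populations was compared with the mean of the other 5 by edgeR's quasi-likelihood test with the library as a block, and a gene was called when its Benjamini-Hochberg adjusted p was under 0.05 and its change exceeded 1.3-fold. Log2 fold changes are given ± their standard error here and below. Of 48 member-population pairs (8 genes, F3 being too low to test), 20 were called higher and 16 lower. Over all genes the shares were 21.2% higher and 19.3% lower. The clusters were built from other genes of the same cells, so these are measures of how the members follow the vessel types rather than of separately isolated vessels.

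Vein stood out for Vwf, whose log2 fold change there was 4.52 ± 0.12 (adjusted p = 2.55e-23), and for Procr, at 2.22 ± 0.12 (adjusted p = 7.99e-16). F8 (0.83 ± 0.27) and Tfpi (0.58 ± 0.10) were also called higher there and Plat lower (−1.38 ± 0.27). Without WT anagen library 2 the F8 call in Vein was lost, at a log2 fold change of 0.47. Artery combined higher Vwf (1.99 ± 0.14), Plat (1.62 ± 0.20) and Procr (0.73 ± 0.13) with lower Tfpi (−1.24 ± 0.11), Plau (−1.58 ± 0.22) and F8 (−1.56 ± 0.34).

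The 2 capillary populations went apart. Cap-Kdr had higher Thbd, by 1.18 ± 0.09 (adjusted p = 6.54e-12), and lower Procr (−3.13 ± 0.20), Plaur (−3.16 ± 0.17), Plat (−3.22 ± 0.35), Vwf (−2.25 ± 0.23) and Plau (−1.34 ± 0.25). Cap-Rgcc had higher Vwf (2.29 ± 0.14), Plaur (1.87 ± 0.11), Plau (0.64 ± 0.18) and Thbd (0.53 ± 0.10), and lower Plat (−2.63 ± 0.31), F8 (−1.74 ± 0.38) and Procr (−1.34 ± 0.17). The Vwf value of Cap-Kdr rests on the correction between libraries before clustering, since without it the log2 fold change was 0.095 and not called, and at resolution 1.2 it was −0.18 and not called. In Cap-Rgcc the Thbd call was lost with a limit of 5% mitochondrial UMIs (0.09) and at resolution 1.2 (0.12), and the Plau call with the 5% limit (0.43).

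In both lymphatic populations Plat was called higher and Vwf lower. Lymph-Col had a log2 fold change of 3.04 ± 0.18 (adjusted p = 1.55e-15) for Plat and of −4.65 ± 0.26 (adjusted p = 7.9e-16) for Vwf, with Thbd lower (−1.59 ± 0.12) and Plaur slightly higher (0.42 ± 0.12). Without WT anagen library 1, that Plaur difference fell to 0.35 and under the 1.3-fold limit, as it did without correction between libraries (0.36). In Lymph-Cap 6 of the 8 members were called higher, from F8 (2.59 ± 0.27), Plat (2.57 ± 0.20) and Plau (1.99 ± 0.18) to Procr (1.76 ± 0.13), Tfpi (0.72 ± 0.11) and Plaur (0.52 ± 0.12), while Vwf (−1.89 ± 0.24) and Thbd (−0.46 ± 0.11) were lower. The Thbd call in Lymph-Cap was lost with a limit of 5% mitochondrial UMIs (−0.28) and at resolution 1.2 (−0.34). The median over the 8 members there was a log2 fold change of 1.24, beside 0.0043 over all genes.

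**Figure D2:**
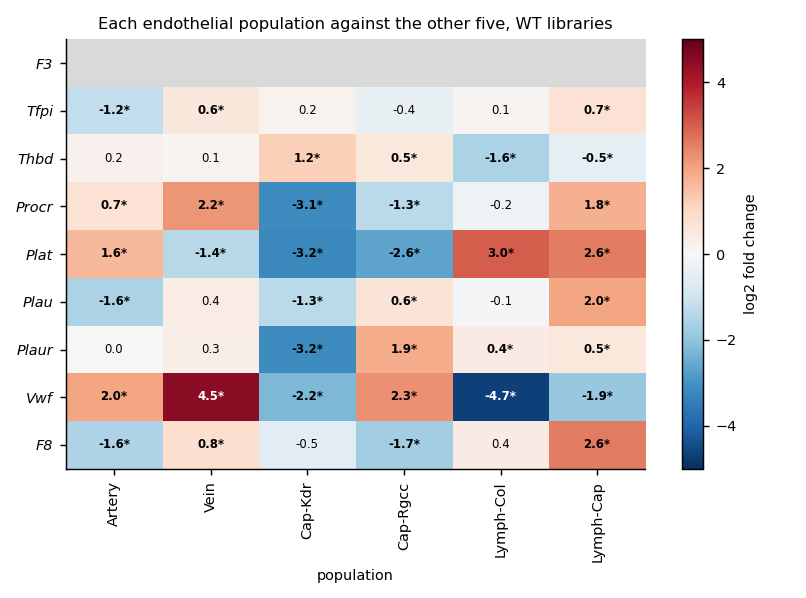
Log2 fold change of each member (rows) in each endothelial population (columns) against the mean of the other populations, in the 4 WT libraries, with asterisks at called pairs and grey where a gene was too low to test. Vwf spans the widest range, from −4.65 in Lymph-Col to 4.52 in Vein.

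The genes whose levels ran most like each member were taken over 60 sums (4 WT libraries by 15 populations, all sharing libraries and depth) among 8627 genes, by Pearson's r on log2(CPM + 1), as a description. For Vwf they were Tmem252 (r = 0.837), Csf3 (0.815) and AU021092 (0.807), of which Tmem252 and Csf3 were among the naming markers. For Thbd they were Ifitm3 (0.893), Nod1 and Slc9a3r2 (both 0.873), and for Procr Lrrc32 (0.81), Msrb3 (0.801) and Apold1 (0.785). Plat ran with Pir (0.873), Pkia (0.866) and Arhgap32 (0.854), and F3 with Svep1 (0.888), Tmeff2 (0.88) and Gpc3 (0.873). For Tfpi they were Pde6d (0.884), Rras (0.857) and Inafm1 (0.849), and for F8 Cda (0.833), Klhl4 (0.795) and Wipf3 (0.789). Plau and Plaur shared Stx3 (0.777 and 0.717) among their 3, beside 1700017B05Rik (0.714) and Eaf1 (0.707) for Plau and Rnf19b (0.751) and Hmox1 (0.729) for Plaur.

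From telogen to anagen of the WT mice, 1 of 92 member-population pairs in 15 populations was called higher and 0 lower, where 0.322% of all pairs of gene and population were called higher and 0.0781% lower. That pair was Plat in Lymph-Cap. Its level was 214 and 201 CPM in telogen and 437 and 378 in anagen. The groups did not overlap, and the log2 fold change was 1.06 ± 0.16 (adjusted p = 0.0315) by edgeR's quasi-likelihood test with Benjamini-Hochberg adjustment over all genes of that population, of which 0.378% were called. The call was lost without WT telogen library 1 (log2 fold change 1.12, adjusted p = 0.123) or WT telogen library 2 (0.99, adjusted p = 0.115). In the 6 endothelial populations, where 0.648% of all pairs were called in either direction, Plat in Lymph-Cap was the 1 member pair. By unadjusted p under 0.05, 35 pairs differed, 27 of them higher, where 13.2% of all pairs did. DESeq2 called 2 higher and 1 lower, where it called 0.811% of all pairs higher and 0.203% lower. The median log2 fold change over the 92 pairs was 0.24, beside medians of −0.14 to 0.02 over all genes of a population.

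In Artery, Plat stood at 238 and 220.0 CPM in telogen and 128 and 98.7 in anagen, without overlap. Its log2 fold change of −0.91 ± 0.17 (adjusted p = 0.0716) was not called by edgeR. It was called without WT anagen library 1 (−1.12), a fit that leaves 1 anagen library. The stage difference of Plat was unequal between endothelial populations (quasi-likelihood F test of all stage-by-population terms, adjusted p = 0.00568), the only member called among 9, where 0.668% of all genes were. Without WT telogen library 1 or WT telogen library 2 that adjusted p was 0.418 or 0.369.

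3 further pairs had adjusted p under 0.1 and were not called. Tfpi in Cap-Rgcc stood at 23.4 and 18.0 CPM in telogen and 42.7 and 46.8 in anagen (1.2 ± 0.27, adjusted p = 0.0638), and Procr in Artery at 219 and 232 against 320.0 and 338 (0.66 ± 0.13, adjusted p = 0.0797). Vwf in Perineurial, with 3 and 24 UMIs in telogen and 33 and 84 in anagen, had a log2 fold change of 2.84 ± 0.50 (adjusted p = 0.0515). In all 3 the anagen libraries lay above the telogen libraries. Each was called higher in anagen when 1 library was left out, but such a fit leaves 1 library in a group. The share of all genes called in such fits is not given here, so these calls cannot be weighed. Tfpi in Cap-Rgcc was called without WT anagen library 1 (1.28) or library 2 (1.15), and Procr in Artery without WT anagen library 1 (0.68). Vwf in Perineurial was called without WT anagen library 1 (3.02), WT telogen library 1 (2.16) or WT telogen library 2 (4.73). The EC (endothelial cell) markers in Perineurial summed to 373 and 437 CPM in telogen and 681 and 647 in anagen, and their part in the Vwf difference was not tested. Tfpi had a positive log2 fold change in 10 of 12 populations tested and in each of the 6 endothelial ones, none of them called. F3 in Pericyte, with 36 and 22 UMIs in telogen and 1 and 0 in anagen, had a ratio of telogen to anagen of 29.0 (95% interval 5.01 to 1165) and was not called.

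In the Alk1 KO libraries against WT telogen, Procr was lower in most populations, Plat was lower in Artery and lymphatic populations, and Plaur was higher in 4 endothelial populations. Calls in the cluster named Fibroblast, included in the counts, compare cells with unlike markers, as described below. Of 75 member-population pairs in 13 populations, which were tested as above, 6 were called higher and 19 lower by edgeR's quasi-likelihood test, where 7.50% of all pairs of gene and population were called higher and 9.11% lower. DESeq2 called 6 higher and 12 lower, of which 6 were Procr, and over all pairs it called 4.64% higher and 5.54% lower. The median log2 fold change over the 75 pairs was −0.60, beside medians of −0.30 to 0.02 over all genes of a population. In the 6 endothelial populations 15 of 38 pairs were called, 5 higher and 10 lower, where 19.8% of all pairs were (9.03% higher and 10.8% lower). This comparison and the one between stages share the WT telogen libraries.

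The libraries differed in more than these genes. The IEG and heat-shock list, 14 immediate-early and stress genes such as Fos, Jun and Hspa1a whose RNA rises when tissue is dissociated, summed in Lymph-Col to 21564 and 18636 CPM in WT telogen and 28298 and 27172 in Alk1 KO. In Lymph-Cap it stood at 10831 and 10343 against 15758 and 15656, and in Cap-Rgcc at 11193 and 11143 against 16978 and 13304. In Cap-Kdr it went the other way (18448 and 13511 against 12603 and 9442), and in Vein and Artery the groups overlapped. Its part in the results below was not tested. Markers of other cell types also differed. The fibroblast markers summed in Lymph-Cap to 95.3 and 141 CPM in WT telogen and 8.68 and 3.25 in Alk1 KO. In Artery they summed to 241 and 259 against 57.3 and 38.2. The macrophage markers in Lymph-Cap gave 128 and 208 against 24.3 and 29.7. The Cap-Kdr markers in Lymph-Col went the other way, 309 and 315 against 871 and 557. The part of such RNA in the calls below, also those at low levels, was not tested. In the cluster named Fibroblast the 9 fibroblast markers summed to 82590 and 72971 CPM in WT telogen but only 5707 and 5146 in Alk1 KO, so its Alk1 KO cells go against their name. The IEG and heat-shock list summed in that cluster to 7541 and 7174 CPM in WT telogen and 25093 and 23175 in Alk1 KO. Without that cluster 14 pairs were called lower and 6 higher.

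Procr was called lower in 9 of the 11 populations tested and had a negative fold change in the other 2. It was called in all 6 endothelial populations, where the shares of all genes called in either direction were 15.0% in Lymph-Cap, 17.4% in Lymph-Col, 19.2% in Artery, 19.4% in Cap-Rgcc, 20.8% in Vein and 29.6% in Cap-Kdr. In Lymph-Cap, Procr went from 485 and 495 CPM in WT telogen to 183 and 104 in Alk1 KO, a log2 fold change of −1.82 ± 0.23 (adjusted p = 0.00037). In Artery it went from 219 and 232 to 133 and 51.8 (−1.29 ± 0.28, adjusted p = 0.00457). Neither pair of groups overlapped.

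Lymph-Col had 87.2 and 163 CPM of Procr in WT telogen and 51.2 and 62.7 in Alk1 KO (−1.2 ± 0.26, adjusted p = 0.00898), and Cap-Rgcc had 97.7 and 78.6 against 27.3 and 36.8 (−1.47 ± 0.30, adjusted p = 0.00256). In Vein the difference was smaller, −0.78 ± 0.19 on the log2 scale with an adjusted p of 0.0135, from 712 and 589 to 321 and 447. The groups were apart in all 3. The call was lost in Vein without Alk1 KO library 1 (−0.56) or WT telogen library 1 (−0.61), and in Lymph-Col without WT telogen library 2 (−0.68). Without correction between libraries before clustering, Procr in Vein had the opposite sign, 0.46, with 52 and 31 Alk1 KO cells left in the population. In that setting 5 of 11 Procr pairs were called lower, with Cap-Rgcc (−0.67) among those lost, and at resolution 1.2 of the clustering Cap-Rgcc was not called either (−1.11). Other Procr calls were lost in Artery with DESeq2 (−1.28), in Lymph-Col with thinned cells (−0.85) and in Vein with a limit of 5% mitochondrial UMIs (−0.62).

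Beyond endothelium Procr was lower in Pericyte, at 746 and 578 CPM in WT telogen and 174 and 107 in Alk1 KO (−2.32 ± 0.34, adjusted p = 0.0163), where 6.21% of all genes were called. The groups did not overlap. The pericyte markers summed there to 9874 and 14608 against 18120 and 10375 CPM, and the endothelial markers to 3638 and 2965 against 699 and 2014, whose part in the Procr difference was not tested. Where Alk1 KO UMIs were few, the ratio of WT telogen to Alk1 KO is given with its exact counting interval: 34.7 (95% interval 11.8 to 169) in Fibroblast, 7.81 (1.38 to 310.8) in Perineurial and 5.3 (1.64 to 27.2) in Cap-Kdr. The shares of all genes called were 39.2% in Fibroblast and 21.2% in Perineurial. The Fibroblast ratio carries the caution on that cluster. The Cap-Kdr call was lost without Alk1 KO library 1 (log2 fold change −1.37), and the Perineurial call without either Alk1 KO library (adjusted p of 0.0597 without library 1, which leaves 0 Alk1 KO UMIs, and 0.104 without library 2, at −2.33). Perineurial was also lost with DESeq2, and Cap-Kdr at a minimum of 500 genes (−2.13).

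Plat was called lower in 4 of 9 populations. In Artery it fell from 238 and 220.0 CPM to 33.9 and 70.9, a log2 fold change of −2.11 ± 0.23 (adjusted p = 1.92e-05). In Lymph-Cap it fell from 214 and 201 to 112 and 108 (−0.98 ± 0.15, adjusted p = 0.00119) and in Lymph-Col from 332 and 339 to 269.9 and 229 (−0.50 ± 0.15, adjusted p = 0.038). The groups were apart in each, and the Lymph-Col call was lost without WT telogen library 1, WT telogen library 2 or Alk1 KO library 2 (log2 fold changes of −0.51, −0.48 and −0.38). The Lymph-Col call was also lost in other settings, among them DESeq2 and the limit of 5% mitochondrial UMIs (−0.26), and the Lymph-Cap call with thinned cells (−0.77). Plat in Fibroblast (−2.20 ± 0.36) carries the caution on that cluster. The size of the Plat difference was unequal between the 4 endothelial populations tested (interaction adjusted p = 0.00441), although without WT telogen library 1 or WT telogen library 2 that value was 0.106 or 0.0798.

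Thbd was called lower in Cap-Kdr, the population where it was highest in WT mice. It stood there at 370.3 and 351 CPM in WT telogen and 107 and 141 in Alk1 KO, a log2 fold change of −1.70 ± 0.22 (adjusted p = 4.24e-05). It was not called there without correction between libraries (−1.68). The other 5 endothelial populations were not called, with log2 fold changes from −0.55 in Artery to 0.11 in Vein, and the difference between populations passed the interaction test (adjusted p = 0.000274). Artery was called lower without Alk1 KO library 2 (−0.91) or WT telogen library 1 (−0.72), fits that leave 1 library in a group. Pericyte went from 174 and 92.6 to 21.7 and 13.9 (−2.95 ± 0.52, adjusted p = 0.0224), and Fibroblast from 68.4 and 97.1 to 48.6 and 14.2 (−1.87 ± 0.45, adjusted p = 0.0121), a call that was lost without WT telogen library 2 (−1.58). The Fibroblast value carries the caution on that cluster. The Pericyte call was lost with thinned cells (−3.06) and with a limit of 5% mitochondrial UMIs (−2.08). The EC markers in Pericyte are those given for Procr, 3638 and 2965 against 699 and 2014 CPM, and their part in the Thbd difference was not tested.

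Macrophage moved the opposite way for Thbd, from 33.7 and 47.7 CPM in WT telogen to 281 and 228 in Alk1 KO (2.62 ± 0.24, adjusted p = 0.0048), on 45 and 69 Alk1 KO UMIs from 25 and 37 cells. There 9.72% of all genes were called. The WT Macrophage cells included a cluster led by cell-division genes with 64 and 123 cells in the telogen libraries and 0 in Alk1 KO, and without it the levels were 42.5 and 57.4 in WT telogen and the log2 fold change was 2.36 ± 0.24 (adjusted p = 0.00442). The IEG and heat-shock list summed in Macrophage to 6634 and 7041 in WT telogen and 25706 and 14224 in Alk1 KO, and the macrophage markers to 22455 and 24047 against 18947 and 17463. The Mono-DC markers summed there to 17755 and 11858 CPM in WT telogen and 2084 and 9553 in Alk1 KO. The part of these lists in the Thbd difference was not tested.

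Plaur rose in 4 of the 6 endothelial populations. Cap-Rgcc had 649.7 and 514 CPM in WT telogen and 1302 and 972 in Alk1 KO (0.98 ± 0.23, adjusted p = 0.00675), and Lymph-Col 243 and 227 against 518 and 523 (1.08 ± 0.14, adjusted p = 0.000394). Vein had 206 and 210.0 against 353 and 406 (0.86 ± 0.17, adjusted p = 0.004), and Cap-Kdr 15.4 and 28.9 against 88.1 and 108 (1.97 ± 0.35, adjusted p = 0.000522). In each of the 4 both Alk1 KO libraries lay above both telogen libraries and above both anagen libraries. The Cap-Rgcc call was lost without WT telogen library 1 (1.15, adjusted p = 0.0723) or WT telogen library 2 (0.81, adjusted p = 0.249). Without correction between libraries Plaur was not called in Cap-Kdr (2.05) or Cap-Rgcc (0.17), and with thinned cells it was not called in Vein (0.50). Artery (−0.02) and Lymph-Cap (−0.05) were not called, and the difference between populations passed the interaction test (adjusted p = 9.48e-05). In Pericyte Plaur was called lower (−2.19 ± 0.51, adjusted p = 0.0442), on 3 and 7 Alk1 KO UMIs, and not without WT telogen library 1 (−1.93). Fibroblast was called lower as well (−1.03 ± 0.33), but not without WT telogen library 1 (−0.70) or Alk1 KO library 2 (−0.67). DESeq2 called neither of these (−2.16 and −0.99), and the Fibroblast value carries the caution on that cluster.

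Vwf was higher in Cap-Kdr of the Alk1 KO libraries, where WT mice had little. It had 7 and 4 UMIs in WT telogen and 44 and 16 in Alk1 KO, or 10.8 and 5.78 against 105 and 46.9 CPM, a log2 fold change of 3.06 ± 0.50 (adjusted p = 0.000298). The WT anagen libraries lay between, at 17.4 and 33.8. In the same cells the vein markers summed to 1436 and 2056 CPM in WT telogen and 1560 and 1375 in Alk1 KO, and the Cap-Kdr markers to 34793 and 41590 against 26242 and 28157. The Cap-Rgcc and Artery markers are not given here. The part of cells like Cap-Rgcc, Artery or Vein in the Vwf, Plaur and Thbd differences of Cap-Kdr was not tested. The Vwf difference was unequal between endothelial populations (interaction adjusted p = 0.000165), with log2 fold changes of −0.67 in Lymph-Cap, −0.61 in Cap-Rgcc, −0.27 in Vein and 0.10 in Artery, none of them called. Cap-Rgcc was called lower without Alk1 KO library 2 (−0.67), a fit that leaves 1 Alk1 KO library. The rise in Cap-Kdr was not called without correction between libraries (1.55), a setting that left 20 and 10 Alk1 KO cells in that population. The 4 members called in the interaction test (Plat, Plaur, Thbd and Vwf, of 8 tested) compare with 19.3% of all genes.

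The remaining members were seldom called. Tfpi was called in 0 of 11 populations and F3 in 0 of 5 by edgeR's quasi-likelihood test, with 1 pair each at an unadjusted p under 0.05, both in Pericyte, and 0 calls of either by DESeq2. F3 in Pericyte had 36 and 22 UMIs in WT telogen and 0 in Alk1 KO, at least 3.86-fold lower against a floor of 3 UMIs over the group. It was called without Alk1 KO library 1 or library 2, fits that leave 1 Alk1 KO library. F8, tested only in Lymph-Cap, had a log2 fold change of −1.41 ± 0.53 (adjusted p = 0.0999) and was not called. It was called without Alk1 KO library 1 (−2.18) or WT telogen library 1 (−1.97), fits that leave 1 library in a group. Plau was called lower only in Fibroblast, where WT telogen over Alk1 KO was 4.94 (95% interval 1.32 to 41.7), and not without Alk1 KO library 2 (log2 fold change −1.23). It carries the caution on that cluster.

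**Figure D3:**
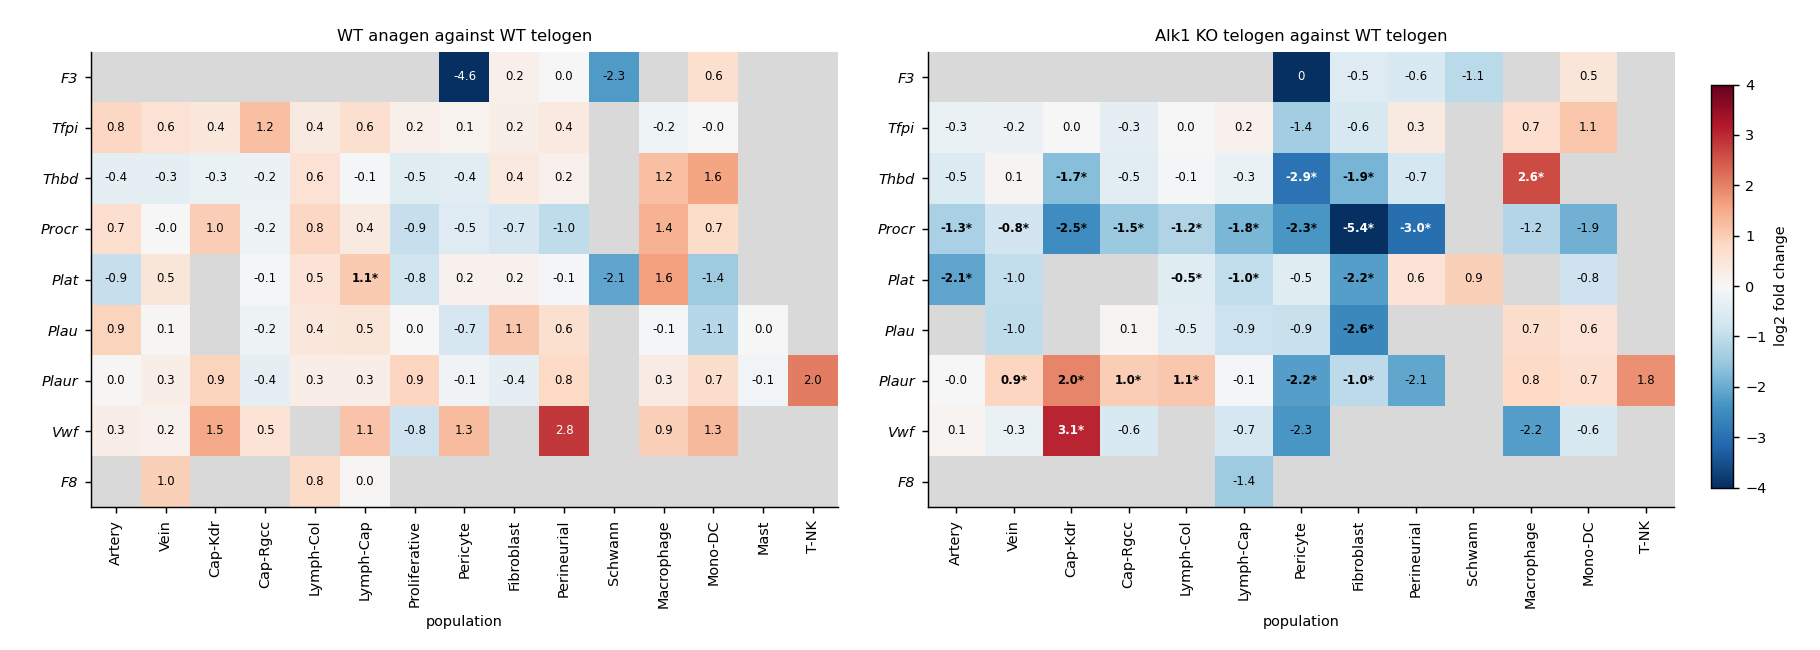
Log2 fold change of each member (rows) by population (columns) for WT anagen against WT telogen (left) and Alk1 KO against WT telogen (right), with asterisks at called pairs, grey where a gene was not tested and 0 where the Alk1 KO libraries held no UMI (colours end at 4 in each direction). The 1 call on the left is Plat in Lymph-Cap, and on the right the Procr row holds 9 calls, all lower.

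**Figure D4:**
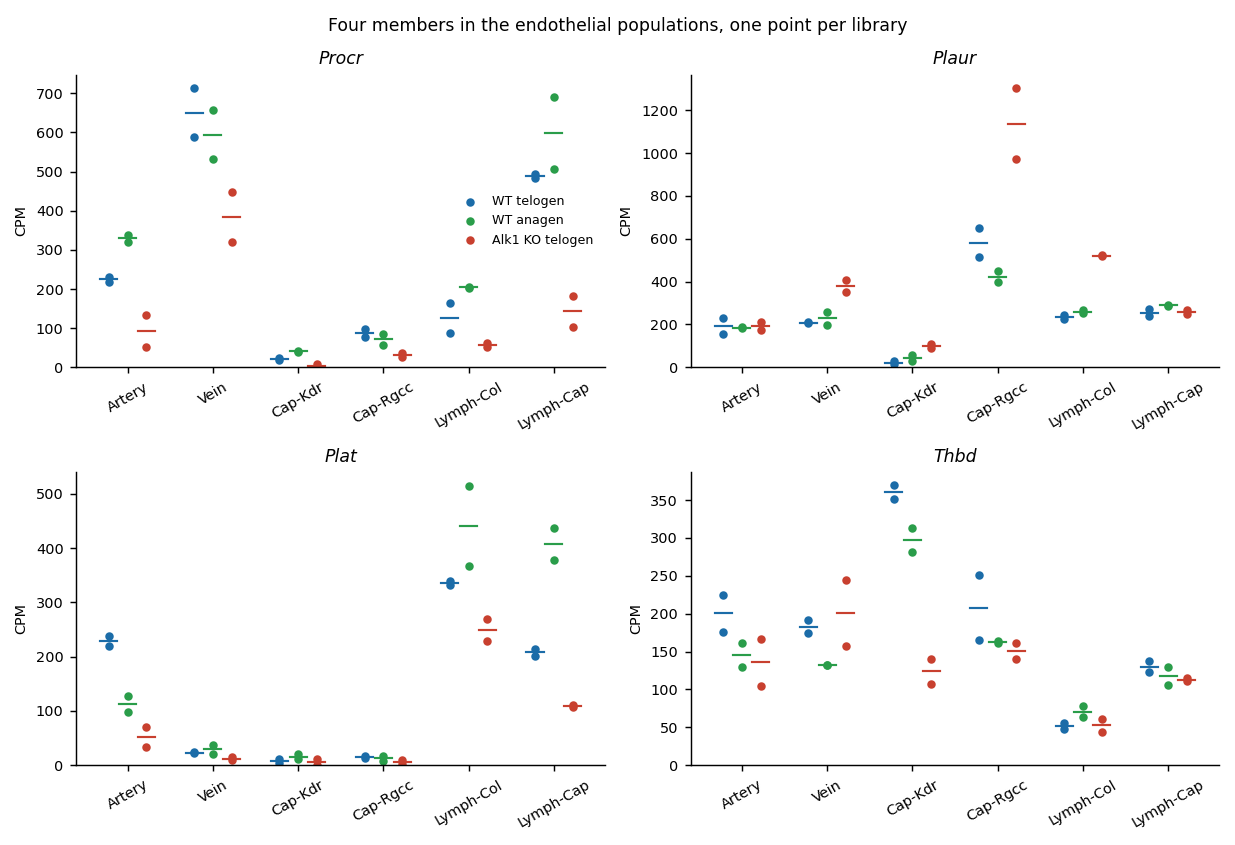
Levels of Procr, Plaur, Plat and Thbd (CPM, linear axis from 0) in the 6 endothelial populations, with 1 point per library and a bar at the mean of each group's 2 libraries. Alk1 KO libraries sit below both telogen libraries for Procr in all 6 populations and above them for Plaur in Cap-Rgcc, Lymph-Col, Vein and Cap-Kdr.

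The other haemostasis genes, a list of 39 that holds the coagulation factors, their inhibitors, plasmin inhibitors and receptors, thrombin receptors and processing genes, had more lower than higher calls in the Alk1 KO. Of 157 pairs 9 were called higher and 51 lower, beside 7.50% and 9.11% over all genes. Of 77 endothelial pairs 3 were higher and 29 lower, beside 9.03% and 10.8%. Anxa2, whose protein with that of S100a10 holds Plat and plasminogen at the cell surface, was called lower in 11 of 13 populations, and S100a10 in 6 of 13. In Lymph-Cap, Anxa2 stood at 1167 and 1209 CPM in WT telogen and 474 and 479 in Alk1 KO (−1.37 ± 0.14, adjusted p = 8.19e-05), and S100a10 at 2379 and 2276 against 1201 and 1221 (−0.997 ± 0.13, adjusted p = 0.00045). The groups did not overlap for either gene. Lman1, the cargo receptor that exports factors V and VIII from the endoplasmic reticulum, was lower in 11 of 13 and its partner Mcfd2 in Artery and Cap-Rgcc.

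Protease inhibitors went in both directions. Serpine2, which inhibits thrombin and plasminogen activators, was higher in Lymph-Cap (0.71 ± 0.17) and lower in Pericyte (−1.22 ± 0.29). Serpinb2, an inhibitor of urokinase, was higher in Macrophage (2.19 ± 0.24). Tfpi2, a relative of Tfpi that inhibits plasmin, was lower in 6 of 7 populations, and the 2 Alk1 KO libraries held 0 UMIs of it in Pericyte and Perineurial, at least 5.19-fold and 2.34-fold lower. The thrombin receptor F2r was called higher in 2 of 10 populations, among them Cap-Kdr (1.44 ± 0.39), and lower in 1, Lymph-Col (−0.84 ± 0.22).

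Between stages, Entpd1, an enzyme that breaks down the platelet agonist ADP, was called higher in anagen in Perineurial (2.81 ± 0.36, adjusted p = 0.0185), where 0.654% of all genes were called. Within WT endothelium 27 of 102 pairs were higher and 31 lower, beside 21.2% and 19.3% over all genes. F5, the cofactor that activated protein C cuts, was highest in Vein (6.67 ± 0.23), and Ptgis, which makes the platelet inhibitor prostacyclin, in Artery (5.62 ± 0.29). F13a1, the fibrin cross-linking factor, stood at 1523 and 1505 CPM in Macrophage of WT telogen. Pros1, which encodes protein S, a helper of activated protein C, was higher in Lymph-Cap (0.63 ± 0.08), and Stab2, a receptor that clears Vwf and F8, stayed at no more than 5.59 CPM in Lymph-Cap of any library.

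**Figure D5:**
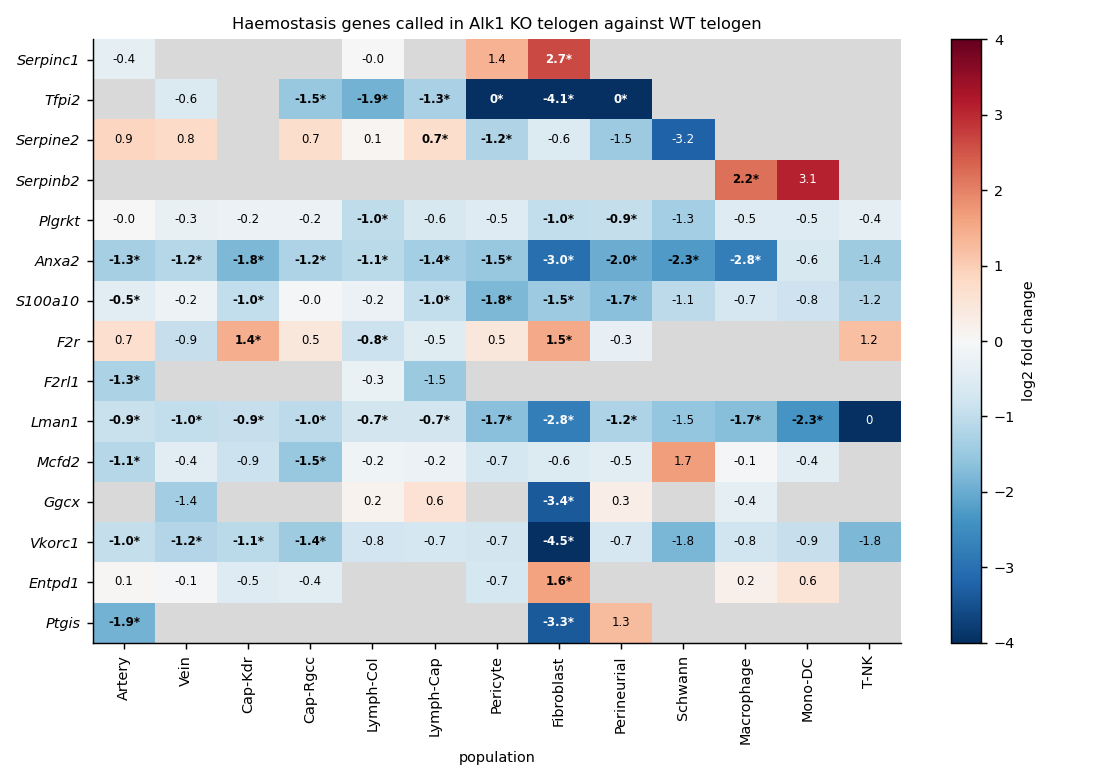
Log2 fold change, Alk1 KO against WT telogen, of other haemostasis genes that had at least 1 call, by population, with asterisks at called pairs, grey where not tested and 0 where the Alk1 KO libraries held no UMI. The Anxa2 and Lman1 rows hold 11 calls each, all lower.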

How the data were processed

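Cells were sorted and sequenced on the 10x Chromium 3′ v3 platform, and the authors made the deposited tables of UMI counts per gene and barcode with Cell Ranger 6.0.1 on mm10 (Seurat 4.0 is also named in the submitters' processing notes). The deposited counts were not normalized. The members and lists were chosen with earlier results of these data known.

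Barcodes with 200 to 5000 genes and under 10% mitochondrial UMIs were kept, and the 9 members and 39 other haemostasis genes were left out of 3000 variable genes. Cells were placed in 30 principal components, corrected between libraries with a Harmony-type procedure, and clustered (Leiden, resolution 0.6). Cluster names rest on lists of markers and are not the authors' annotation. Clusters stayed unnamed and were not tested when they met no list or were led by markers of another class. The same held for clusters that were shallow and not led by their own markers. Unnamed endothelial clusters held 94 to 514 cells per library. Likely doublets (the top 5% of scores of each library) were kept, and removed in an alternative.

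UMIs were summed per library and population (at least 5 cells) and tested with edgeR 4.0.16 in R 4.3.3 (filterByExpr, TMM, quasi-likelihood F test, Benjamini-Hochberg over all genes of a comparison), in a fit of only the libraries compared. A call needed an adjusted p under 0.05 and a change above 1.3-fold, and the interaction tests needed only the former. The members were named throughout, with the genes of the haemostasis list by their calls (1 item of that list is not reported here, though the counts over the list include it). The tests were checked on simulated counts. With 2 libraries a group, spread is poorly known, and intervals on counts cover counting error only. Alternatives were DESeq2 1.42.0, no filter on low counts, a replicate block, all 6 libraries in one fit, thinning to 1500 UMIs, other cell limits, clustering without correction or at resolution 1.2, and leaving out each library. Chosen after seeing the data were the 6 endothelial populations alone, Fibroblast left out, and Macrophage without its dividing cluster.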

Additional observations from a re-analysis of the deposited data

Results flagged for a closer look

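In 5 results the size of a difference was itself unequal between endothelial populations by edgeR's quasi-likelihood F test of the interaction, with Benjamini-Hochberg adjustment. For Alk1 KO against WT telogen, these were Plaur (adjusted p = 9.48e-05, log2 fold changes from −0.05 in Lymph-Cap to 1.97 in Cap-Kdr), Vwf (0.000165, −0.67 in Lymph-Cap to 3.06 in Cap-Kdr), Thbd (0.000274, −1.70 in Cap-Kdr to 0.11 in Vein) and Plat (0.00441, −2.11 in Artery to −0.50 in Lymph-Col). For WT anagen against WT telogen it was Plat (0.00568, −0.91 in Artery to 1.06 in Lymph-Cap). The 2 comparisons share the WT telogen libraries. Groups of 2 libraries are too small for a search for single libraries that stand apart.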

How the results depend on the processing

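The population contrast in WT endothelium kept 20 higher and 16 lower calls within 1.5 times of that in all alternatives run. Of its called values 1 reversed, Vwf in Cap-Kdr at 0.0953 (log2) without correction between libraries, and so did Procr in Vein in the Alk1 KO, at 0.458, and the cause was not tested. Without correction 449 and 480 Alk1 KO cells lay in unnamed clusters of all cells, beside 21 and 36 with it. Alk1 KO cells went from 106 and 94 to 20 and 10 in Cap-Kdr, and from 120 and 113 to 25 and 22 in Cap-Rgcc. In Vein they went from 140 and 111 to 52 and 31. The Alk1 KO results in these 3 populations thus rest on the correction. Between stages, the 1 higher call became 2 with DESeq2, with all 6 libraries in one fit, with thinned cells and at resolution 1.2, 3 with doublets removed, 6 at 5% mitochondrial UMIs, 16 with no filter and 0 without correction. The 0 lower calls became 1 with DESeq2, with doublets removed and at a minimum of 500 genes, and 4 with no filter. The shares of all genes called with no filter or with a library left out are not given here. A fit between groups without 1 library leaves 1 in its group. Leaving out 1 library gave 1 to 13 higher calls (13 without WT anagen library 1, 10 without WT anagen library 2, 2 without WT telogen library 2) and 0 to 4 lower. In the Alk1 KO, 6 higher calls became 3 without correction and 5 to 11 with 1 library left out (11 without Alk1 KO library 1). The 19 lower became 12 with DESeq2, 9 with thinned cells, 10 in endothelium alone and 13 to 21 with 1 library left out. The stage interaction (1 call) became 2 with DESeq2, 0 at 5% mitochondrial UMIs, 3 with no filter and 0 to 3 with 1 library left out, and that of the Alk1 KO (4 calls) 3 to 6.

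Replicate numbers did not pair the samples (correlation of deviations −0.080 to 0.061), and the replicate block gave 4 higher and 4 lower calls between stages and 6 and 19 in the Alk1 KO. With 41 to 115 UMIs of F8 per library, its differences were mostly not detectable.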
